A study of Rattus norvegicus with 2 samples.

Results

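The respiratory chain and ATP synthase subunits are the proteins of the inner mitochondrial membrane that pass electrons to oxygen and use the resulting proton gradient to make ATP. Members were the probe sets whose single gene symbol began with Nduf, Uqcr, Atp5 or Cox4 to Cox8, or was Sdha, Sdhb, Sdhc, Sdhd, Cycs or Cyc1. This symbol rule took in 101 of 8799 probe sets and 55 of 4736 genes, and it used no measured value. Of the genes, 24 encode subunits of complex I, 1 of complex II, 4 of complex III, 12 of complex IV and 9 of complex V, and 5 are no subunits. Another 7 probe sets carry a matching symbol beside the symbol of a like-named copy or pseudogene and are counted apart without a gene name.

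The compared animals were 1 rat housed for 2 weeks in a cage that immobilized it and 1 control rat that spent the same 2 weeks in a metabolic cage. Both were male Wistar rats aged 15 weeks, and total RNA from the duodenum of each was hybridised to 1 rat U34A oligonucleotide array. The design text names the tissue as mucosa, whereas the labels name duodenal epithelial cells. With 1 array per condition there was no replicate check and no p-value is given. A single rat stands for each condition, and differences between these animals and differences between the conditions cannot be told apart.

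In the respiratory chain, complex I takes electrons from NADH and complex II takes them from succinate. Complex III passes them to cytochrome c, complex IV hands them to oxygen, and complex V lets protons flow back and makes ATP. A few subunits of complexes I, III, IV and V are encoded in mitochondrial DNA, and the other subunits are nuclear products imported from the cytosol. Enterocytes of the duodenum hold many mitochondria and spend much ATP on the ion gradients that drive nutrient uptake.

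Signals are given in array units, after the immobilized rat's array was scaled by 1.02 to centre the ratios of probe sets above the floor on 0. A ratio is the log2 of immobilized over control, given only where both signals exceeded a floor of 39.9, the median of all signals. Where a gene had several probe sets, the one of highest mean signal stands for it, and 52 of the 55 genes had a ratio. The ratios of different probe sets of a gene scattered with an SD of 0.31 on the log2 scale over 696 genes, which is error within the arrays and covers no spread between animals. Among member genes this SD was 0.24 over 23 genes. Over all genes with 1 probe set per known accession it was 0.35, from 431 genes. The spike-in RNAs added at hybridisation had a median log2 ratio of -0.21, with 7 of 9 probe sets lower in the immobilized rat, and the 6 probe sets for actin and GAPDH had log2 ratios of -0.51 to -0.30.

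Signals of the respiratory chain and ATP synthase genes were similar in the immobilized and the control rat, and no gene differed by 2-fold. Of all 2524 genes with a ratio, 68 did (2.69%), as did 13 of the 721 with a mean signal of at least 500. For 52 genes, a count of 0 lies near these shares. The complexes differed in the direction of their small differences. All 9 ATP synthase genes (8 after quantile normalization or loess) and 8 of 10 complex IV genes had lower signals in the immobilized rat, whereas 10 of 24 complex I genes were lower (11 with the signals as deposited or trimmed mean scaling) and 14 higher. Over all 52 genes with a ratio, 31 were lower in the immobilized rat (59.6%), beside 50.6% of all 2524 genes. The median log2 ratio was -0.090 for the members and -0.0065 for all genes. Both are smaller than the SD of 0.31 between probe sets of the same gene, which is a spread of single ratios and not of medians. Bright genes as a whole leaned the same way: among the 721 genes with a mean signal of at least 500, 58.4% were lower with a median of -0.056, against 26 of 44 members (59.1%) with a median of -0.064. The share of members lower thus lay near that of all genes of such signal.

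A 1.5-fold higher signal in the immobilized rat was reached by 4 genes, against 8.32% of all genes, and a 1.5-fold lower one by 1 gene, against 4.87% of all genes. The higher ones were the complex I genes Ndufc2 and Ndufb2, the supercomplex factor gene Cox7a2l and Ndufa4l2, a relative of Ndufa4, and the lower one was the complex I gene Ndufv3. As 4 and 1 of 52 genes, these shares were close to the background. In 35 of the 52 genes the log2 ratio was smaller than the SD of 0.31, as it was in 1564 of all 2524 genes with a ratio.

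**Figure D1:**
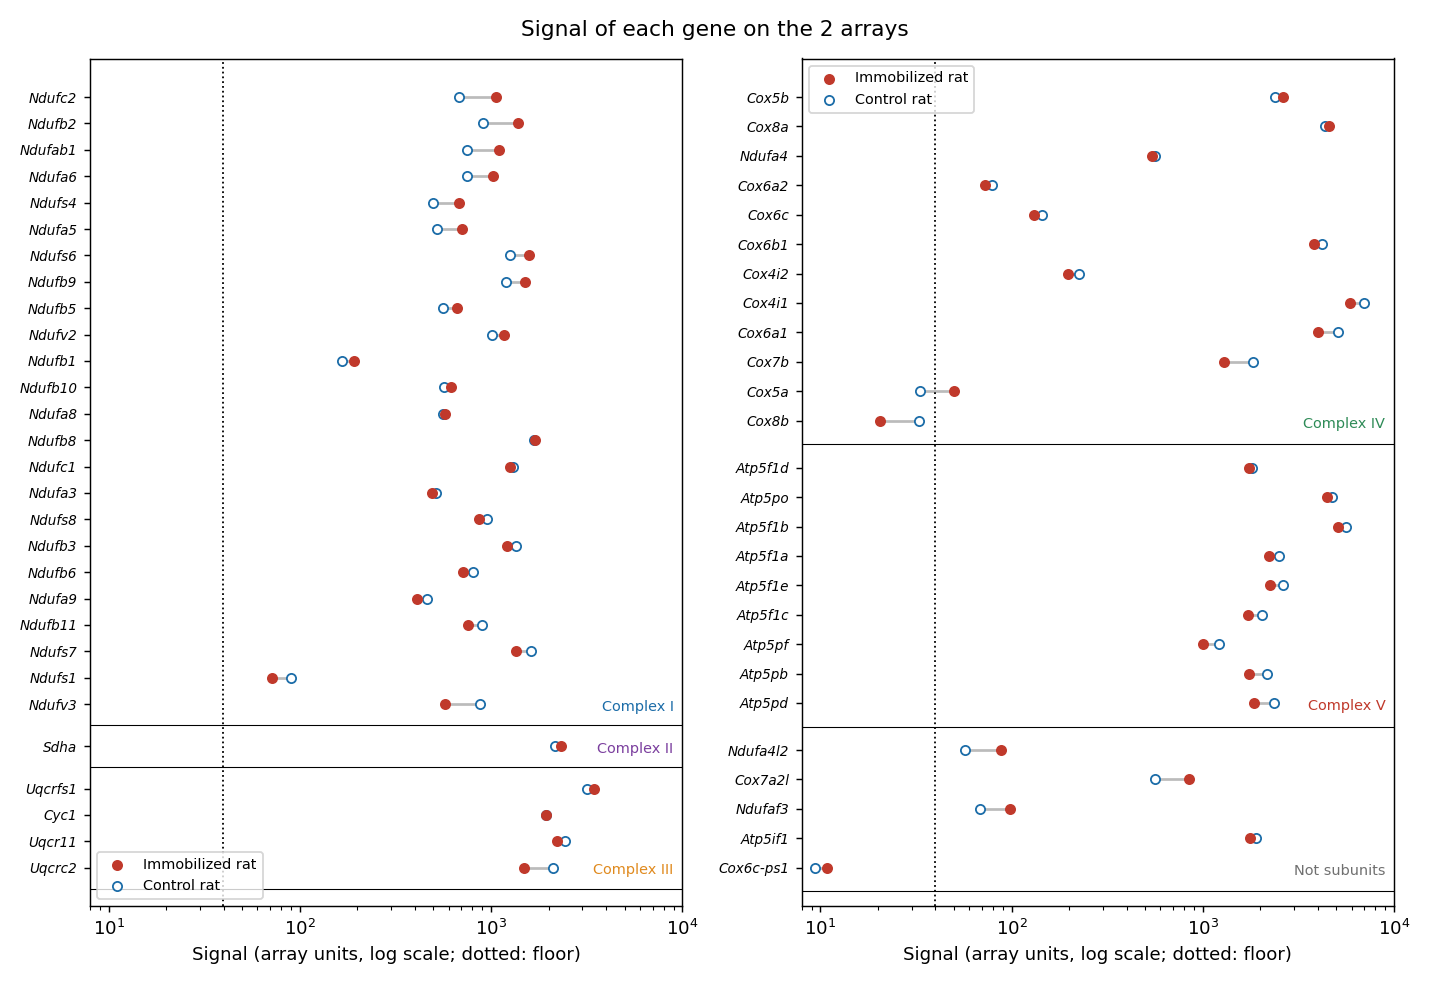
Signal of each member gene (probe set with the highest mean signal) in the immobilized rat (filled) and the control rat (open), in array units on a log axis, grouped by complex. The dotted line is the floor of 39.9. All 9 complex V genes have the filled point to the left of the open one, whereas 14 of 24 complex I genes have it to the right.

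Nuclear genes of the respiratory chain are known as targets of the transcription factor NRF1, and their promoter sequences were therefore searched for the core letters of its motif. Of the 55 genes, 46 matched an entry in the RefSeq promoter table of build GRCr8, and the 250 bases before the start site were searched on both strands. The core TGCGCA, which reads the same on both strands, was found in 10 of 46 member genes (21.7%) and in 6.88% of all 27457 genes in the table. Shown are the stretches of the 3 genes with the highest and the 2 with the lowest log2 ratios among those with the core, because they lie on both sides of 0. Each is 120 of the 250 bases searched, in the direction of the gene, placed to hold the first core, which is in capitals. That core starts 9 bases before the start site in Cox7a2l, 101 in Ndufa6, 195 in Ndufa5, 71 in Ndufa9 and 158 in Atp5pb. Of the 2 cores of Ndufa5, the second lies outside its stretch.
Cox7a2l (chr6:16936454-16936573, plus strand): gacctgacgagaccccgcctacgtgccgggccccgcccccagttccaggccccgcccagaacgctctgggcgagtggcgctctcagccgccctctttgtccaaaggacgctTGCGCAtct
Ndufa6 (chr7:115750356-115750475, minus strand): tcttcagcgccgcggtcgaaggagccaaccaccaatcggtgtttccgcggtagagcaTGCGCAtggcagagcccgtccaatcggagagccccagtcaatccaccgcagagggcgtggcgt
Ndufa5 (chr4:53971366-53971485, minus strand): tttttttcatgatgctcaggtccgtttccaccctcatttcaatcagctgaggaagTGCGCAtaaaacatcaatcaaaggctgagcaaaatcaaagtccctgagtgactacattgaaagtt
Ndufa9 (chr4:161374179-161374298, minus strand): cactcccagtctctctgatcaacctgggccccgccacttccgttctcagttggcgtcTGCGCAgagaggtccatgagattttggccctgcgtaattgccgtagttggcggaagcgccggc
Atp5pb (chr2:196123833-196123952, minus strand): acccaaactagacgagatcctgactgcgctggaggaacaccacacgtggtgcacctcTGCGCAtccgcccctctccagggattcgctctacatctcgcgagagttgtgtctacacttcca
The log2 ratios of these genes were 0.59 for Cox7a2l, 0.46 for Ndufa6, 0.45 for Ndufa5, -0.17 for Ndufa9 and -0.30 for Atp5pb. Of the 10 genes with the core, 7 were higher in the immobilized rat, among them Ndufb8, which turned sign under another scaling, and 3 were lower. Beside this, 49.4% of all genes with a ratio and 21 of all 52 members were higher, and the difference was not tested. The core of the ETS factor motif, CCGGAAG, was found in 8 of 46 member genes (17.4%) and in 8.11% of all genes. The GC box GGGCGG was found in 34.8% and 33.5%, and TATAAA in 4.35% and 14.1%. Matches of different motifs were counted separately, whether or not they overlap. A match describes the letters of these windows and is no evidence of binding.

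Complex I, NADH dehydrogenase, had 24 genes on the array, each with a ratio, and they spanned both directions. Of these, 14 were higher in the immobilized rat and 10 lower, beside 49.4% of all genes higher, with a median log2 ratio of 0.079 and a range of -0.62 to 0.64. Among the 21 complex I genes with a mean signal of at least 500, 13 were higher, with a median of 0.12, where 41.6% of all genes of such signal were higher. In 14 of the 24 the log2 ratio was smaller than the SD between probe sets, as it was in 1564 of all 2524 genes with a ratio.

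The core subunits encoded in the nucleus carry its flavin and iron-sulfur clusters. Ndufs1, which encodes the largest iron-sulfur subunit, had a signal of 71.5 in the immobilized rat and 89.8 in the control rat (log2 ratio -0.33). Ndufs7, whose product holds the cluster next to the ubiquinone site, had 1350.2 in the immobilized rat and 1610.4 in the control rat (-0.25). Ndufs8, another iron-sulfur subunit, had 865 and 956 (-0.14) in the same order, with -0.57 to 0.029 over its 3 probe sets above the floor. These 3 core genes were lower in the immobilized rat, although Ndufs8 also had a probe set above 0. Ndufv2, the subunit next to the flavin, went the other way, with 1175 in the immobilized rat and 1009.6 in the control rat (0.22). The 4 core genes had a median log2 ratio of -0.20, with 3 lower, beside 50.6% of all genes.

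The accessory subunits surround this core and have no redox centre of their own. Of the 20 accessory genes, 13 were higher in the immobilized rat, beside 49.4% of all genes. The median log2 ratio of the 20 was 0.16. Ndufc2, a membrane arm subunit, had the highest ratio in complex I, with 1057 in the immobilized rat and 676 in the control rat (1.56-fold higher). Ndufb2, also in the membrane arm, had 1381 and 913 in the same order (1.51-fold higher). Each of these rests on 1 probe set. Ndufab1, the mitochondrial acyl carrier protein that also serves fatty acid synthesis, had 1097 in the immobilized rat and 748 in the control rat (1.47-fold higher), and its other probe set above the floor, from a different accession, had a log2 ratio of 0.62.

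Further accessory genes with log2 ratios above the SD of 0.31 were Ndufa6, Ndufs4, Ndufa5, Ndufs6 and Ndufb9. Ndufa6 had 1023 in the immobilized rat and 745 in the control rat (0.46), with 0.80 at a dimmer probe set. Ndufs4, an assembly-relevant subunit whose loss causes complex I deficiency in mice, had 680.4 in the immobilized rat and 495 in the control rat (0.46), with 0.63 at a probe set of the same accession. For these genes every probe set above the floor was higher in the immobilized rat. Ndufa5 had 708 in the immobilized rat and 519 in the control rat (0.45). Ndufs6, whose product binds zinc, had 1578 in the immobilized rat and 1258 in the control rat (0.33), and Ndufb9 had a log2 ratio of 0.32. The last 3 have 1 probe set each, and Ndufs6 and Ndufb9 lie below the SD of 0.35 found with 1 probe set per accession.

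Smaller positive log2 ratios were measured for the membrane arm genes Ndufb5 (0.25, and 0.12 at a dimmer probe set), Ndufb1 (0.20) and Ndufb10 (0.12), and for Ndufa8 (0.038). Ndufb8 stood at 0.018 by its brightest probe set, but its other 2 probe sets above the floor had -0.31 and -0.52. On the other side of 0, Ndufv3, an accessory subunit of the NADH-binding module, had 573 in the immobilized rat and 879 in the control rat, a 1.53-fold lower signal. A second Ndufv3 probe set of the same accession was above the floor in the control rat alone. The other 6 accessory genes lower in the immobilized rat were Ndufb11 (-0.25), Ndufa9 (-0.17), Ndufb6 (-0.17), Ndufb3 (-0.16), Ndufa3 (-0.08) and Ndufc1 (-0.045), all nearer to 0 than the SD of 0.31. Ndufb6 had a second probe set at 0.43.

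By the letter of the symbol, 4 of 6 Ndufa genes, 6 of 9 Ndufb genes and 2 of 5 Ndufs genes were higher, beside 49.4% of all genes. With so few genes these counts cannot be told apart from that share, and the Ndufs symbols include core and accessory genes. Complex I signals therefore did not differ in 1 direction. Of the 14 higher genes, 13 encode accessory subunits, as do 7 of the 10 lower ones and 20 of all 24. Whether accessory and core genes differ could not be tested with these arrays.

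**Figure D2:**
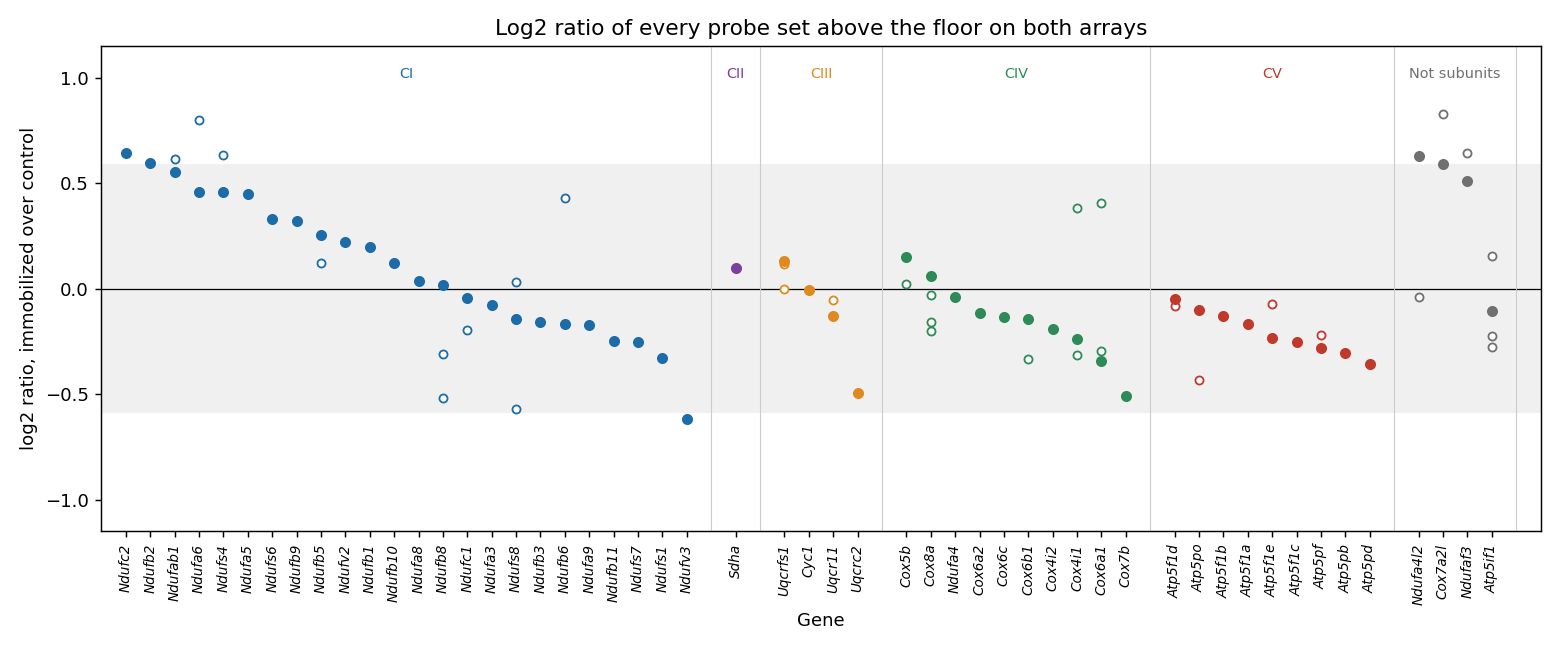
Log2 ratio, immobilized over control, of every member probe set above the floor on both arrays, by gene and complex. Filled points are the probe set with the highest mean signal, open points the other probe sets, and the grey band spans less than 1.5-fold. Complex V points all lie below 0, and complex I points span -0.62 to 0.80.

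Complex II and cytochrome c are thinly covered. Sdha, the flavoprotein of succinate dehydrogenase that also acts in the citric acid cycle, had a signal of 2323 in the immobilized rat and 2169.8 in the control rat (log2 ratio 0.098). Its 1 probe set showed a difference well under the SD of 0.31. The probe set that carries a cytochrome c symbol carries 3 symbols in all, and its signal was 1206 in the immobilized rat and 1160 in the control rat (log2 ratio 0.056).

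Complex III, the cytochrome bc1 complex, had 4 genes, of which 3 were lower in the immobilized rat, with a median log2 ratio of -0.069. All had a mean signal of at least 1000, and 64.5% of all genes of such signal were lower. Uqcrc2, a core subunit without a redox centre, had 1489 in the immobilized rat and 2099 in the control rat, a 1.41-fold lower signal at its 1 probe set. Uqcrfs1, the Rieske iron-sulfur protein, had 3475 in the immobilized rat and 3171 in the control rat (log2 ratio 0.13), with -0.0009 to 0.13 over 3 probe sets. Cyc1, which encodes cytochrome c1, had 1929 in the immobilized rat and 1937 in the control rat (-0.0063, turning to 0.025 after loess). The catalytic subunits on the array, Uqcrfs1 and Cyc1, thus had nearly equal signals in both rats, and the largest difference in the complex was that of Uqcrc2. Uqcr11, a small accessory subunit, had log2 ratios of -0.13 and -0.052 over its probe sets.

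Complex IV, cytochrome c oxidase, had 12 genes, of which 10 had a ratio. Of these, 8 were lower in the immobilized rat, where 50.6% of all genes were lower, with a median log2 ratio of -0.14 and a range of -0.51 to 0.15. Among the 7 complex IV genes with a mean signal of at least 500, 5 were lower (71.4%), beside 58.4% of all genes of such signal. At a mean signal of at least 1000, 4 of 6 were lower (66.7%), close to the 64.5% of all such genes. None reached 1.5-fold. In bulk tissue, fewer cells of a type and less RNA per cell cannot be told apart.

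Cox7b, a small subunit needed for assembly, had the lowest ratio of the complex, with 1286 in the immobilized rat and 1829 in the control rat (1.42-fold lower). Cox6a1 had 4013 in the immobilized rat and 5091 in the control rat (log2 ratio -0.34), and Cox4i1, a regulatory subunit that binds ATP, had 5911 in the immobilized rat and 6984 in the control rat (-0.24). Both genes also had a bright probe set above 0, at 0.41 for Cox6a1 (3678 in the immobilized rat and 2776 in the control rat) and 0.38 for Cox4i1 (5094 and 3911 in the same order). The direction of these genes therefore depends on the probe set, and they are uncertain. Cox6b1, which faces the space between the membranes, had 3805 in the immobilized rat and 4206 in the control rat (-0.14), and its second probe set stood at -0.33.

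Cox6c (-0.13) and Ndufa4 (-0.042), a protein named for complex I but now placed in complex IV, were slightly lower. On the other side of 0, Cox5b, which binds zinc, had 2643 in the immobilized rat and 2383 in the control rat (log2 ratio 0.15), and Cox8a had 4557 in the immobilized rat and 4372 in the control rat (0.059), although the other 3 Cox8a probe sets lay between -0.20 and -0.03. Cox5a had 1 probe set of its own, with 50.2 in the immobilized rat and 33.1 in the control rat, so that it exceeded the floor in the immobilized rat alone and was at least 1.26-fold higher there.

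Another 3 complex IV genes encode isoforms known from particular tissues. Cox6a2 and Cox8b belong to heart and skeletal muscle, and Cox4i2 to lung. Cox6a2 had 72.9 in the immobilized rat and 79.1 in the control rat at the 1 of its 3 probe sets above the floor on both arrays (-0.12). Cox8b had 20.6 and 32.7 in the same order, under the floor on both arrays. Cox4i2 had 197 in the immobilized rat and 226 in the control rat (-0.19). The signals of the muscle isoforms thus lay near or under the floor in both rats.

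Complex V, the ATP synthase, was lower in the immobilized rat for each of its 9 genes (8 after quantile normalization or loess), with a median log2 ratio of -0.24 and a range of -0.36 to -0.049. All 13 of their probe sets, which come from 9 accessions, were lower too, where 50.1% of all probe sets were. The differences were small: no gene reached 1.5-fold, and 8 of 9 were within the SD of 0.31. All 9 genes had a mean signal of at least 1000. Of the 409 genes of such signal, 64.5% were lower, with a median of -0.085, and 293 were within that SD. The exception was Atp5po, which moved to 0.024 after quantile normalization and 0.0049 after loess, and the median became -0.25 and -0.19. In the main scaling the spike-in RNAs had a median log2 ratio of -0.21, near that of complex V. The actin and GAPDH probe sets had -0.51 to -0.30. No scaling was centred on these controls, so the count of ATP synthase genes lower holds only for the scalings tried.

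The F1 head of the enzyme holds the catalytic sites. Atp5f1b, the catalytic beta subunit, had 5117 in the immobilized rat and 5604 in the control rat (log2 ratio -0.13). Atp5f1a, the alpha subunit that alternates with it, had 2213 in the immobilized rat and 2489 in the control rat (-0.17). Atp5f1c, the gamma subunit of the rotating shaft, had 1718 and 2045 in the same order (-0.25). These subunits of head and shaft differed alike in direction and by at most 1.19-fold. Of the small shaft subunits, Atp5f1e, epsilon, had 2240.3 in the immobilized rat and 2639.8 in the control rat (-0.24, and -0.074 at a second probe set), and Atp5f1d, delta, had 1739 in the immobilized rat and 1799 in the control rat (-0.049). The 5 F1 genes had a median log2 ratio of -0.17.

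The peripheral stalk holds the head still against the turning shaft. Atp5pd, its d subunit, had the lowest ratio in the complex, with 1844 in the immobilized rat and 2364 in the control rat (1.28-fold lower). Atp5pb, the b subunit, whose promoter stretch with the NRF1 core is printed above, had 1750.3 in the immobilized rat and 2161 in the control rat (-0.30 on the log2 scale). Atp5pf, coupling factor 6, had 999 in the immobilized rat and 1213 in the control rat (-0.28, and -0.22 at its other probe set). Signals of these stalk genes lay between 1.22-fold and 1.28-fold lower in the immobilized rat. Atp5po, which joins stalk and head, had 4447 in the immobilized rat and 4766 in the control rat (-0.10), with -0.43 at a second probe set of the same accession. The 4 stalk genes had a median log2 ratio of -0.29.

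Probe sets with several symbols did not all follow the complexes they belong to. The 2 that carry an ATP synthase symbol were slightly higher in the immobilized rat, with 2892 against 2814 in the control rat (log2 ratio 0.040) and 2505 against 2260.3 (0.15). With these counted, 13 of 15 ATP synthase probe sets were lower. The 2 with a complex I symbol had log2 ratios of -0.22 and 0.90, the second with 1270.1 in the immobilized rat and 681 in the control rat. The 2 with a complex IV symbol had -0.058 and 0.51.

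**Figure D3:**
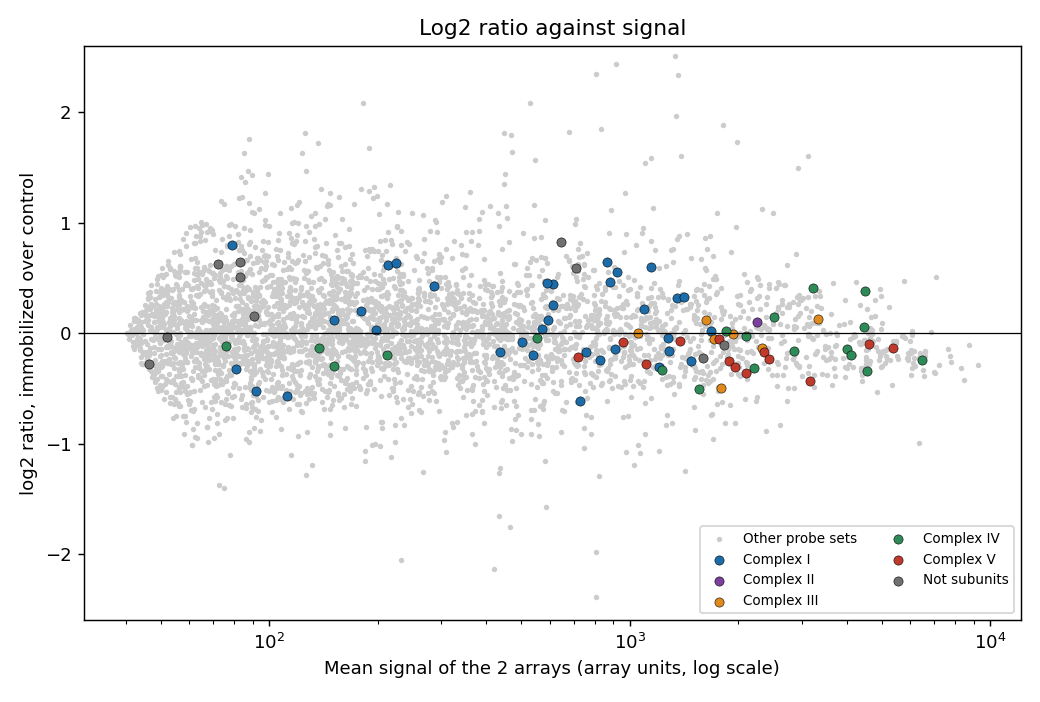
Log2 ratio, immobilized over control, of each probe set above the floor on both arrays, against its mean signal in array units on a log axis. Grey points are other probe sets, of which 3 lie outside the axis, and coloured points are members by complex. All 13 complex V points lie below 0 in this scaling, at mean signals of 718 and above.

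Of the 5 genes that the symbols take in without being subunits, 4 had a ratio. Of these, 3 were higher in the immobilized rat, beside 49.4% of all genes. Cox7a2l, which helps complexes III and IV join into supercomplexes, had 851 in the immobilized rat and 566 in the control rat (1.51-fold higher), and its second probe set, from another accession, had 823 in the immobilized rat and 464 in the control rat (log2 ratio 0.83). In this scaling it is the one member gene above 1.5-fold (0.58 on the log2 scale) at more than 1 probe set with both arrays above the floor. Its brighter probe set fell short of 1.5-fold with the signals as deposited or trimmed mean scaling (0.57 each) and after quantile normalization (0.55). Ndufaf3, an assembly factor of complex I, had 97.8 in the immobilized rat and 68.6 in the control rat (0.51, and 0.64 at another accession), both dim. Ndufa4l2, a relative of Ndufa4, had 87.8 in the immobilized rat and 56.8 in the control rat (0.63), but its other probe set above the floor had -0.039, and 3 more were under it. Atp5if1, the inhibitor that keeps ATP synthase from running backwards, had 1758 in the immobilized rat and 1891 in the control rat (-0.11), and its 4 probe sets spanned -0.28 to 0.16. The pseudogene Cox6c-ps1 had 10.9 in the immobilized rat and 9.4 in the control rat, under the floor on both arrays.

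Differences between probe sets of a gene bounded what these arrays could resolve. Of the 101 probe sets, 84 were above the floor on both arrays, 3 on 1 array and 14 on neither. For 23 member genes at least 2 probe sets exceeded the floor, and 9 of them (39.1%) had ratios of opposite sign, as did 37.4% of the 696 such genes on the array. The member genes with opposite signs were Ndufb6, Ndufb8, Ndufs8, Uqcrfs1, Cox4i1, Cox6a1, Cox8a, Atp5if1 and Ndufa4l2. Of the 9 ATP synthase subunit genes, Atp5f1a, Atp5f1b, Atp5f1c, Atp5pb and Atp5pd have 1 probe set each and could not be among them. The other 4 had probe sets of the same sign, but the second shares an accession with the first.

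In 5 of 6 lists of related mitochondrial genes, each of at most 10 genes with a ratio, lower signals in the immobilized rat outnumbered higher ones, where 50.6% of all genes and 58.4% of those with a mean signal of at least 500 were lower. Of 13 mitochondrially encoded subunit genes, 3 had a probe set with a symbol, namely those of the catalytic core of complex IV. COX1 had 5516 in the immobilized rat and 6661 in the control rat (-0.27), COX3 had a log2 ratio of -0.13, and COX2 had 2990.4 in the immobilized rat and 2166 in the control rat (0.47). These genes, which are transcribed from mitochondrial DNA as parts of long shared transcripts, thus had ratios on both sides of 0.

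Of the citric acid cycle genes, 7 of 10 with a ratio were lower, with a median log2 ratio of -0.22. They were led by Pc, pyruvate carboxylase (89.2 in the immobilized rat and 166 in the control rat, -0.90, and -0.23 at its other probe set), Dlat of pyruvate dehydrogenase (-0.47), citrate synthase Cs (-0.30) and Idh3g (-0.26). Mitochondrial carriers and porins were lower for 5 of 8, with a median of -0.071. Among them, the porin Vdac1 (-0.37) and the ADP/ATP carrier Slc25a5 (-0.27) were lower, and the uncoupling protein gene Ucp2 (0.30) and the citrate carrier Slc25a1 (0.27) were higher.

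Other enzymes that feed electrons to ubiquinone were lower for 4 of 5 genes, with a median of -0.065. Gpd2, the mitochondrial glycerol-3-phosphate dehydrogenase, had 294 in the immobilized rat and 877 in the control rat (-1.58, and up to -0.63 over 3 probe sets), a difference beyond that of any respiratory chain member. Etfdh (0.36, but -0.52 at another probe set), Etfa (-0.24) and Chdh (-0.065) lay nearer to 0. Of the assembly factor list, the prohibitin gene Phb2 alone had a ratio, at 0.76. Of the regulator list, Ppara had -0.25 and Esrra -0.012, and the other listed regulators had no ratio.

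Cytosolic ribosomal protein genes, another set of abundant and widely expressed genes, were higher for 35 of 40 with a median of 0.25. Beside this, 49.4% of all genes and 35.5% of those with a mean signal of at least 1000 were higher. Rps4x-ps9 (0.85), Rps24 (0.75) and Rps10 (0.65) were highest and Rpl3l (-0.67) was lowest. Glycolysis genes divided, 6 higher and 5 lower with a median of 0.024, with Pfkl 2.37-fold higher, Pgk1 at 0.26 on the log2 scale, Pfkp at -0.21 and Hk2 at -0.17. Among the members 31 of 52 were lower, and the differences between lists were not tested.

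Markers of cell types differed in the same comparison, in which 50.6% of all genes with a ratio were lower and 49.4% higher. Villus enterocyte markers, of which 12 were listed, were lower for 9 of 10 genes (median log2 ratio -0.25). Their summed signals were 46924 in the immobilized rat and 54436 in the control rat. Each had a mean signal of at least 2539, and 64.5% of all genes with a mean signal of at least 1000 were lower. Crypt markers were higher for 5 of 5 (median 0.52), with sums of 1313 and 968.7 in the same order. Exocrine pancreas markers were higher for 13 of 13 (median 0.86), with sums of 13227 in the immobilized rat and 6966 in the control rat. The median of villus markers was close to that of the ATP synthase genes. Both sets had mean signals above 1000, where the median of all genes was -0.0845. The part of these cell types in the differences of the members was not tested.

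Immune markers were higher for 3 of 4 genes (sums of 4374 in the immobilized rat and 3427 in the control rat). Genes of the mucous and Paneth list were lower for 4 of 4 (8953 and 12456 in the same order). These were Reg3b (log2 ratio -2.39), Reg3g (-1.98), Muc2 (-0.23) and Tff3 (-0.23). Defa5 of that list was under the floor on both arrays, so the count says little of Paneth cells. Enteroendocrine markers were lower for 3 of 5 (2640.5 and 2692). Of smooth and striated muscle markers, 2 of 7 with a ratio were higher, with sums of 935 in the immobilized rat and 744 in the control rat. Des, Ckm and Myh7 lay under the floor in both rats. The higher ones were Myh11 (0.59) and Acta2. Acta2 had 288.7 in the immobilized rat and 90.3 in the control rat (1.68, but -0.13 at its other probe set). The 5 lower ones included Myl2 (-0.77) and Tnni3 (-0.23). As a check of the labelled epithelium, each of the 10 villus genes with a probe set was above the floor in both rats, and markers of pancreas, immune cells and smooth muscle were above it too.

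**Figure D4:**
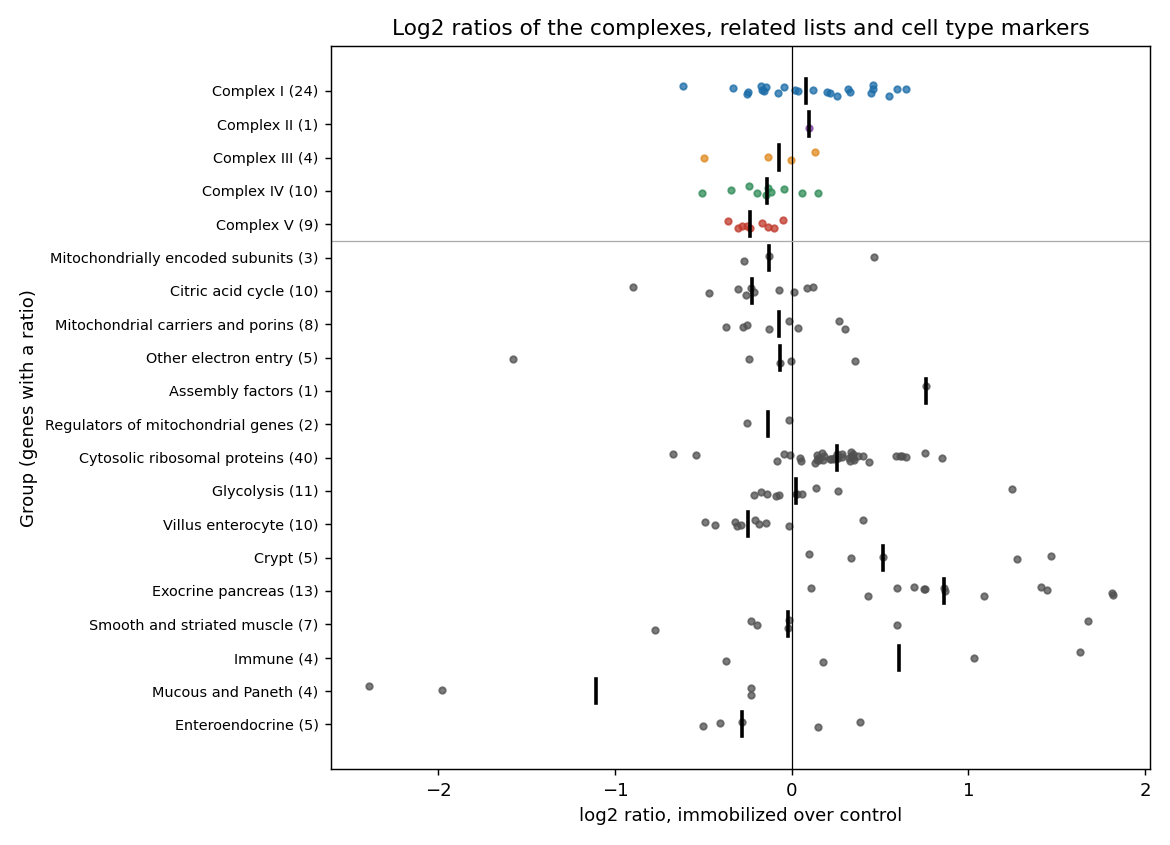
Log2 ratio, immobilized over control, of each gene with a ratio in the 5 complexes (coloured), the related lists and the cell type marker lists (grey), with the number of genes in brackets and the median as a black bar. The medians are 0.079 for complex I, -0.24 for complex V, -0.25 for villus enterocyte markers and 0.25 for ribosomal proteins.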

How the data were processed

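The deposited values are signal intensities on a linear scale, 1 per probe set and array, made by the authors from the scans. Per the design text they came from the manufacturer's software in version 4.0, and per the submitters' processing notes from MAS5, so the signal algorithm is not settled. No detection calls entered the analysis. A single gene symbol was annotated for 7006 of 8799 probe sets. Symbols came from the platform annotation, were updated through the gene ID, and changed for 0 members.

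The immobilized rat's array was scaled, the floor was the 50th percentile of the pooled signals, and log2 ratios needed both signals above it. With 1 signal above it, a gene got a bound, that signal divided by the floor. Complexes were assigned by hand from the known subunits. The members and lists were chosen with earlier results of these data known, and up to 4 genes per related list, those farthest from 0, are named. Every member gene is named with its signals or its log2 ratio. COX1, COX2 and COX3, the array annotation's symbols for mitochondrial genes of the related list, were added to it after the files were seen. The promoter motifs were likewise chosen then, and a longer form of the NRF1 motif was searched first and replaced by its core with the earlier matches known. The number of arrays limits the precision, and no test between the rats could be made. Alternatives were other scalings (signals as deposited, 2% trimmed mean, quantile, loess with span 0.3), lower and higher floors (30th and 70th percentiles), other uses of the probe sets and other fold thresholds. Subunits alone, a mean signal of at least 500, and leaving out probe sets of sequence families or incomplete probe selection were added after seeing the data. The ratio steps were tested on simulated data. Python 3.11.15, numpy 2.4.6, pandas 2.3.3, statsmodels 0.14.6 and matplotlib 3.10.9 were used.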

Additional observations from a re-analysis of the deposited data

How the results depend on the processing

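The medians of all members and of each complex kept their direction and moved by less than the SD of 0.31 between probe sets under each of the alternatives tried. That SD is larger than each of these medians, so it is a lax limit. No alternative centred the arrays on the spike-in RNAs, whose median log2 ratio was -0.21 in the main scaling. The medians of all members and of complexes I to IV lay above that value, and that of complex V lay below it. The median ranged from -0.11 to -0.032 for all members, from 0.055 to 0.13 for complex I, from -0.092 to -0.0063 for complex III, from -0.16 to -0.10 for complex IV and from -0.26 to -0.19 for complex V. Of the 52 genes with a ratio, 3 turned sign under a scaling, Atp5po, Cyc1 and Ndufb8, each near 0. The number of genes lower became 50 with every probe set counted, of 84 probe sets. The number at 1.5-fold higher, 4 as reported, was 2 with the signals as deposited, with trimmed mean scaling and after quantile normalization, 9 with every probe set counted, 10 at a laxer threshold below 1.5-fold and 0 at 2-fold. The genes lost were Cox7a2l and Ndufb2 with the signals as deposited and trimmed mean scaling, and Cox7a2l and Ndufa4l2 after quantile normalization. The number of complex IV genes lower, 8 as reported, was 5 of 7 at a mean signal of at least 500 and 14 of 19 probe sets with every probe set counted. The number at 1.5-fold lower, 1 as reported, was 2 when the floor was lowered to the 30th percentile, which lets in a further gene, 6 at the laxer threshold and 0 at 2-fold. The assembly factor median turned to -0.058 under that lower floor, which adds a second gene to Phb2. The medians of glycolysis genes (-0.069 to 0.049) and of the mitochondrially encoded genes (-0.15 to 0.042) turned sign under some alternatives. No paired analysis was possible because each condition had 1 sample, and no replicate could be left out. Signal over background limits Ndufs1, Ndufa4l2, Ndufaf3, Cox6a2 and Cox5a, whose signals lay near the floor of 39.9.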
